A study of Mus musculus with 2 samples.

Results

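Mir208a, Mir208b and Mir499 are microRNA (miRNA) genes that each lie inside an intron of a myosin heavy chain gene, and they were followed here in the mouse heart. They were picked by symbol: of the 2202 miRNA genes counted in each table, all 3 were present, each had sense-strand reads in both libraries, and each passed the minimum of 10 summed reads for the comparison between libraries. The samples were 2 hearts of male B6CASTF1/J mice aged 36 days, numbered 3 and 4 by the labels, from which short RNAs were sequenced (1 library per heart). B6CASTF1/J is the F1 hybrid of a B6 and a CAST parent. No treatment, other genotype, tissue or age was labelled, so both libraries form 1 group and the design allows a description and a comparison of library 1 with library 2, but no contrast between conditions. A free-text label attaches months instead of days to the same age, and both hearts cite 1 donor record, so the spread given below is between 2 samples that may not be independent animals. Nor do the labels say which chambers the tissue pieces held.

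A miRNA is cut from a hairpin-shaped precursor, and its bases 2 to 8, the seed, pair with target messages and lower their output. Myosin heavy chains are the motor proteins of the sarcomere. Myh6 encodes the fast alpha chain that dominates the adult mouse heart. Myh7 encodes the slower beta chain of the fetal heart and of slow skeletal muscle, and Myh7b encodes a related chain. Messages and proteins of the hosts were not measured here. Because each miRNA is transcribed with its host, the family is known as a link between myosin choice and gene regulation. Mir208a is known from stress-dependent cardiac growth in mice, and Mir208b and Mir499 from the slow muscle program.

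The mature sequences show why these genes are treated as a family. They are given 5′ to 3′ from RefSeq (GRCm38.p6, the assembly also called mm10), which held all 3 genes, with the seed in capitals. The arms shown first are the ones for which these miRNAs are named in the literature of the heart. Read counts were summed per hairpin, so neither arm was measured separately.
miR-208a-3p: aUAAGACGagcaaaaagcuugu
miR-208b-3p: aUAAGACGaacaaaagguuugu
miR-499-5p: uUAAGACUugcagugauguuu

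The seeds of miR-208a-3p and miR-208b-3p were identical at all 7 bases. Across their 22 bases these sequences differed at 3 positions, written as the miR-208a-3p base, the position from its 5′ end and the miR-208b-3p base: G10A, A16G and C18U. The first 9 bases were therefore the same in both. The seed of miR-499-5p matched theirs at 6 of 7 bases and differed at its last base, by G8U against miR-208a-3p. Aligned from the 5′ end without gaps, miR-499-5p was identical to miR-208a-3p at 12 of 21 positions and to miR-208b-3p at 10 of 21. Among all 1738 mature mouse entries of the RefSeq table, bases 2 to 7 read UAAGAC in these 3 and in no other entry, and the 7-base seed of miR-499-5p was found in that entry alone.

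The opposite arms are shown because the reads of a gene can include them.
miR-208a-5p: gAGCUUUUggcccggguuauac
miR-208b-5p: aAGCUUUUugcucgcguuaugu
miR-499-3p: gAACAUCAcagcaagucugugcu

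The seed of miR-208a-5p and miR-208b-5p was again shared, here with 1 further entry of the table, miR-6415. The seed of miR-499-3p was found in no other entry. On the opposite arms the relation of Mir499 to the pair was thus not seen, and the family likeness rests on the arms shown first.

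The full hairpins are given next with both mature arms in capitals, since their sequence decides whether short reads can be told apart.
Mir208a: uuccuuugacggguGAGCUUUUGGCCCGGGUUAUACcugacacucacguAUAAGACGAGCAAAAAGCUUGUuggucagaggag
Mir208b: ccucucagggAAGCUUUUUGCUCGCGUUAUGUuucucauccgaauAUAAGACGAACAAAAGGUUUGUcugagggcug
Mir499: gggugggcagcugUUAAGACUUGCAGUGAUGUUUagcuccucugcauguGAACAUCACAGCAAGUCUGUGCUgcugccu

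On the same strand, the longest stretch shared by the Mir208a and Mir208b hairpins was 10 nt, and Mir499 shared at most 6 nt with either. Against all 2201 other annotated miRNA hairpins, on either strand, the longest shared stretch was 14 nt for Mir208a and Mir208b (with each other, in reverse complement) and 13 nt for Mir499. These are shorter than a mature miRNA, and the search did not extend beyond annotated miRNA genes. The RefSeq hairpins were identical to the GENCODE M21 transcripts of the same genes. The hairpins were 83, 77 and 79 nt long for Mir208a, Mir208b and Mir499, with 49.4%, 45.5% and 51.9% G and C.

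Each hairpin lies on the strand of its host and in an intron (mm10, GENCODE M21). Mir208a (ENSMUSG00000065432.1) occupies positions 54949060 to 54949142 of chromosome 14 (minus strand), in intron 29 of Myh6, which spans 54941921 to 54966927. That intron is 542 nt long, and the hairpin begins 195 nt after exon 29. Mir208b (ENSMUSG00000077928.1) lies on the same strand of that chromosome from 54975700 to 54975776, in intron 31 of Myh7, which spans 54970684 to 54994626. This intron is 461 nt long, and the hairpin begins 102 nt after exon 31. Myh7 ends 3756 nt upstream of the start of Myh6, so the pair of hairpins is 26557 nt apart. Mir499 (ENSMUSG00000076312.1) is on the plus strand of chromosome 2 from 155622880 to 155622958, in intron 19 of Myh7b, which spans 155611212 to 155634307. Its intron is 481 nt long, and the hairpin begins 158 nt after exon 19. No exon overlapped a hairpin in the 7 transcripts of Myh6, the 8 of Myh7 or the 3 of Myh7b in GENCODE M21, and a search of its 55450 genes found 0 others over the hairpins.

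**Figure D1:**
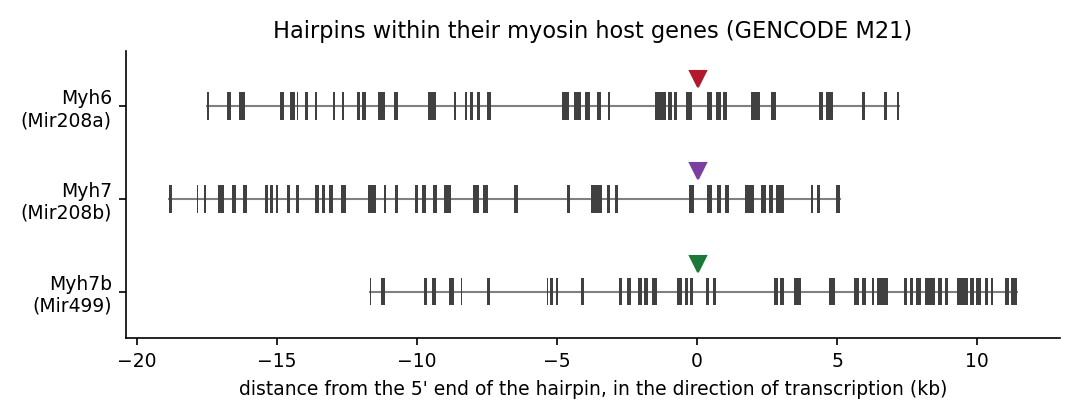
Position of each hairpin in its host gene. The x axis gives the distance from the 5′ end of the hairpin in kb, in the direction of transcription; dark boxes are exons of the first listed full-length transcript, thin lines are introns and the triangle marks the hairpin. The hairpins of Mir208a and Mir208b sit in introns 29 and 31, toward the 3′ end of Myh6 and Myh7, while Mir499 sits in intron 19 near the middle of Myh7b.

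Library 1 held 5479149 reads and library 2 held 4893073, of which 1999362 and 1862526 were assigned to the sense strand of a miRNA gene. Levels are counts per 1000000 of these assigned reads (CPM), and a mean ± SD is over n = 2 libraries. A count of 0 would allow 3 reads, 1.5 CPM in library 1 and 1.61 CPM in library 2. Intervals are exact 95% Clopper-Pearson intervals and, like the allowance for a count of 0, cover counting error only; the labels mention no molecular identifiers, so PCR copies are included. Marker miRNAs of other cells were also listed. The endothelial gene Mir126a (48924 and 63819 CPM) and the smooth muscle gene Mir143 (38272 and 37276 CPM) were far above the myosin-hosted genes. The heart muscle loci of miR-1 and miR-133 are left out here, since reads with several places were assigned to no gene. The 6 neuronal genes held 1 counted read in each library. In whole tissue, fewer cells of a type cannot be told apart from less RNA per cell.

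Mir208a, the miRNA of the alpha myosin gene, had the highest level of the family. It held 14003 reads in library 1, or 7004 CPM (6889 to 7120), and 6319 reads in library 2, or 3393 CPM (3310 to 3477). Library 1 was the higher, by 2.06-fold, and the intervals did not overlap. Its mean was 5198 ± 2553 CPM. It ranked 24th of all miRNA genes in library 1 and 33rd in library 2.

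Mir499, from Myh7b, came next, and its libraries stood in the opposite order. It held 2671 reads in library 1, or 1336 CPM (1286 to 1388), and 5851 reads in library 2, or 3141 CPM (3062 to 3223). Library 2 was the higher, by 2.35-fold, again with separate intervals. The mean was 2239 ± 1277 CPM, and the rank moved from 58th in library 1 to 34th in library 2. In library 2, Mir499 therefore stood directly behind Mir208a in rank.

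Mir208b, the miRNA of the beta myosin gene, was low in both hearts. It held 301 reads in library 1, or 150.5 CPM (134 to 169), and 192 reads in library 2, or 103.1 CPM (89.0 to 119). Library 1 was 1.46-fold higher, with intervals that did not overlap. The mean was 126.8 ± 33.6 CPM, at rank 125 in library 1 and 138 in library 2. The SD was 26.5% of the mean for Mir208b, 49.1% for Mir208a and 57.0% for Mir499, beside a median of 16.5% over the 141 genes with a mean level of at least 100 CPM. None of the 3 genes had an antisense read in either library.

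**Figure D2:**
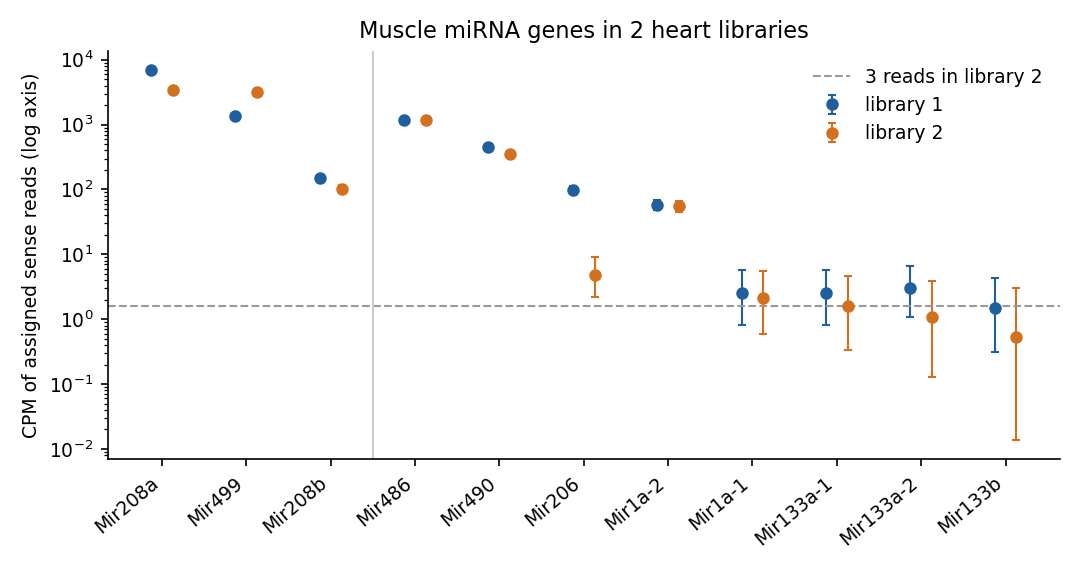
Level of the muscle miRNA genes in each library, as CPM of assigned sense reads on a log axis; points are libraries, bars are exact 95% intervals of the count and the dashed line is the level of 3 reads in library 2. The family stands left of the grey line: Mir208a was higher in library 1 (7004 against 3393 CPM), Mir499 in library 2 (3141 against 1336 CPM), and the 4 genes at the right were within a few reads of 0.

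The order of means was Mir208a, Mir499, Mir208b, and it was the same in both libraries. The place of each member against its neighbours among all miRNA genes was within the spread of the libraries. The genes directly above and below Mir208a in mean level were Mir27b (4058 and 6441 CPM) and Mir29a (4468 and 4472 CPM), those around Mir499 were Mir15b (2284 and 2598 CPM) and Mir28a (2357 and 1981 CPM), and those around Mir208b were Mir101b (131 and 127 CPM) and Mir186 (121.5 and 131.5 CPM). The range of each member over the libraries overlapped the ranges of both its neighbours. In all, 16 genes had a range overlapping that of Mir208a, 33 that of Mir499 and 36 that of Mir208b.

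Some genes lay close to a member in both libraries at once. Likeness was measured as the Euclidean distance over log2(CPM + 1) in the 2 libraries, which reflects level as much as change. Nearest to Mir208a were Mir93 (distance 0.34), Mir99b (0.41) and Mir322 (0.55), and Mir93 and Mir99b were also higher in library 1, at 7212 against 4297 and 7712 against 4443 CPM. Mir499 had Mir674 as its nearest gene (0.51), at 942 CPM in library 1 and 3037 CPM in library 2, followed by Mir27a (0.57) and Mir146 (0.62). Mir208b was nearest to Mir92-2 (0.21), Mir193b (0.23) and Mir501 (0.31). No member was among the 3 nearest genes of another.

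Ratios between members within a library do not depend on how libraries are scaled, and the ratio of Mir208a to Mir499 differed severalfold between the hearts. In library 1 the reads of Mir208a were 5.24 times those of Mir499 (exact 95% interval 5.03 to 5.47). In library 2 the ratio was 1.08 (1.04 to 1.12), so the pair was nearly level, and the interval still excluded 1. The ratio fell 4.85-fold from library 1 to library 2, and the mean log2 ratio was 1.25 ± 1.61. As background, the ratio was 2-fold or more apart between the libraries in 22.0% of the 2346 pairs among the 69 genes with a mean level of at least 1000 CPM, and it was as far apart as for Mir208a and Mir499, or farther, in 42 pairs (1.79%). These pairs share genes and are a description of these libraries, not a test.

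The ratio of Mir208a to Mir208b was far above 1 in both hearts and differed less between them. It was 46.5 in library 1 (41.5 to 52.3) and 32.9 in library 2 (28.5 to 38.2), which is 1.41-fold apart with separate intervals, and the mean log2 ratio was 5.29 ± 0.35. In counted reads, the alpha and beta myosin miRNAs, which share their seed, thus kept the same order at a large distance. Whether different miRNAs are recovered equally by sequencing was not tested. Mir499 also exceeded Mir208b in both. Its ratio was 8.87 (7.87 to 10.03) in library 1 and 30.5 (26.4 to 35.4) in library 2, which is 3.43-fold apart, with a mean log2 ratio of 4.04 ± 1.26. Of the 3 ratios within the family, both that include Mir499 were more than 3-fold apart between libraries, and the remaining one was not. Dividing counts by hairpin length changed the mean log2 ratios to 5.18 for Mir208a over Mir208b, 1.18 for Mir208a over Mir499 and 4.00 for Mir499 over Mir208b.

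**Figure D3:**
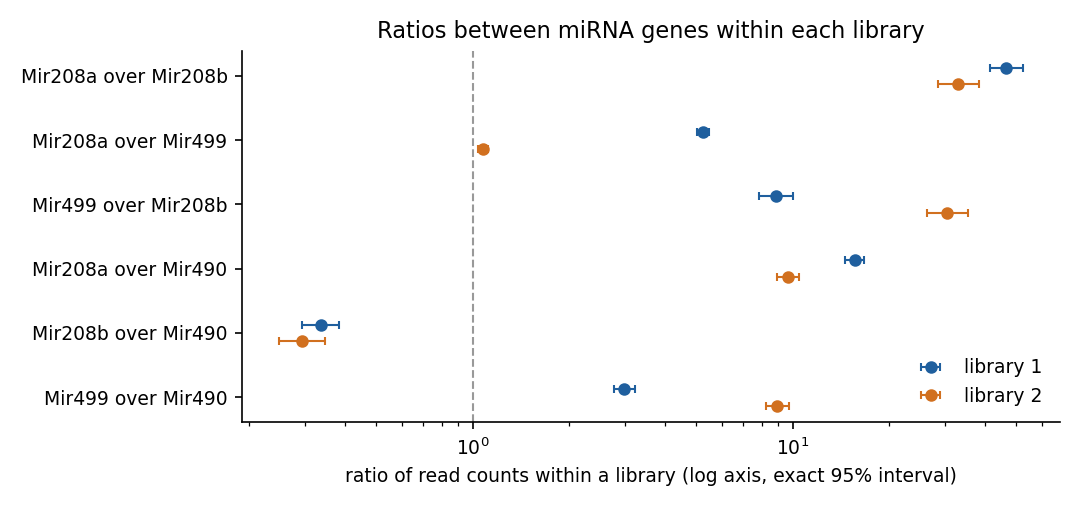
Ratios of read counts between gene pairs within each library, on a log axis; points are libraries, bars are exact 95% intervals and the dashed line marks a ratio of 1. Mir208a over Mir499 was 5.24 in library 1 and 1.08 in library 2, while Mir208b over Mir490 had overlapping intervals.

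Taken as 1 pool of reads, the family differed less between the hearts than its leading members did. The 3 genes, the only ones in the RefSeq table with UAAGAC at bases 2 to 7 of an arm, held 16975 reads in library 1, 0.849% of assigned reads (0.836 to 0.862). In library 2 they held 12362 reads, 0.664% (0.652 to 0.676). The sum was 1.28-fold higher in library 1, and its mean was 0.756% ± 0.131. What it was made of differed more: Mir208a gave 82.5% of the pool in library 1 (81.9 to 83.1) and 51.1% in library 2 (50.2 to 52.0). Mir499 gave 15.7% (15.2 to 16.3) and 47.3% (46.4 to 48.2). Mir208b stayed a small part, at 1.77% (1.58 to 1.98) and 1.55% (1.34 to 1.79), with overlapping intervals.

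**Figure D4:**
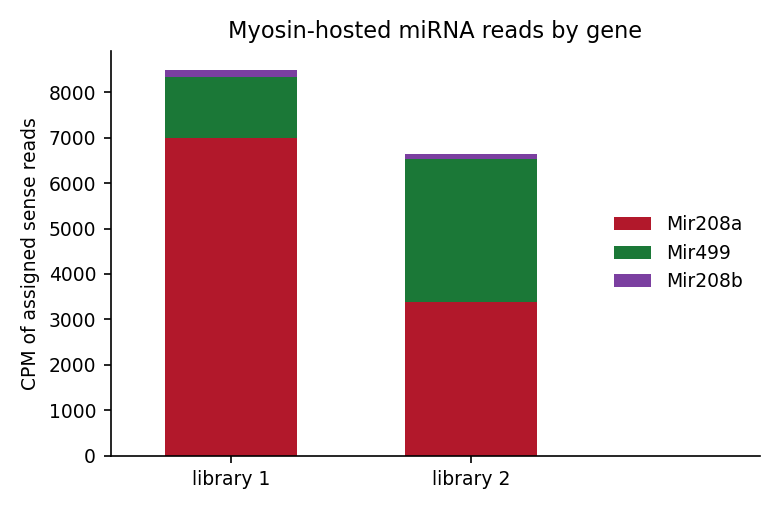
Summed level of the family in each library, in CPM of assigned sense reads, split by gene. The bars reach 8490 CPM in library 1 and 6637 CPM in library 2, and the Mir499 part is 1336 against 3141 CPM while the Mir208a part is 7004 against 3393 CPM.

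The libraries were then compared gene by gene. The test was an exact two-sided conditional binomial test of each gene's counts against the ratio of assigned totals, over all 344 genes with 10 or more summed reads, with Benjamini-Hochberg adjustment. A gene was called at an adjusted p under 0.05 and a ratio of 2-fold or more. The test models counting error only, so it compares these 2 libraries and says nothing about conditions. Mir499 was called higher in library 2 (log2 ratio 1.23), where 5.52% of all tested genes were called. Mir208a was called higher in library 1 (log2 ratio of library 2 over library 1 of -1.05), where 11.6% of all tested genes were called. The adjusted p of both was 0 to the precision of the computation, which reflects their depth. Mir208b was not called, at a log2 ratio of -0.55 with an adjusted p of 0.000121 in the exact test, since it missed the 2-fold threshold.

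Scaling mattered for Mir208a. The median log2 ratio of all tested genes was -0.19, and TMM scaling (trimmed mean of M-values, which centres the bulk of the genes) added 0.19 to every log2 ratio. With TMM, Mir499 stood at 1.42 and was called, beside 8.14% of tested genes called higher in library 2. Mir208a stood at -0.86 and was no longer 2-fold, beside 7.85% of tested genes called higher in library 1, and Mir208b stood at -0.36. The directions of all 3 were the same with both scalings. Among the 141 genes with a mean level of at least 100 CPM, the median absolute log2 ratio was 0.34 when scaled to assigned totals. With that scaling, a value as large as that of Mir499 was reached by 10 genes, itself included, as large as that of Mir208a by 17, and as large as that of Mir208b by 41. With TMM, the same counts were 9 for Mir499, 23 for Mir208a and 58 for Mir208b.

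**Figure D5:**
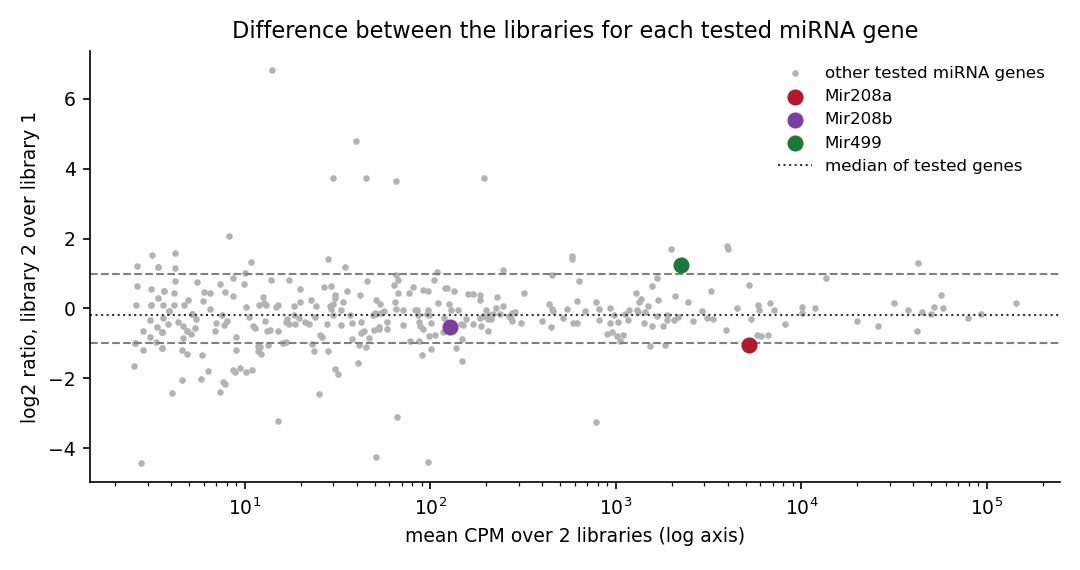
Log2 ratio of library 2 over library 1 for the 344 tested genes against mean CPM on a log axis, scaled to assigned totals; each point is a gene, dashed lines mark 2-fold and the dotted line is the median of -0.19. Mir499 (1.23) lies above the upper line, Mir208a (-1.05) just below the lower one and Mir208b (-0.55) between them.

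Among other muscle miRNAs, Mir206 differed between the libraries and Mir486 and Mir1a-2 were at like levels in both. Of 9 listed genes 8 were found by symbol, and 3 had enough reads for the test, of which 1 was called, higher in library 1, where 11.6% of all tested genes were called (7.85% with TMM). That gene was Mir206, a miRNA of skeletal muscle, with 194 reads in library 1 (97.0 CPM) and 9 in library 2 (4.83 CPM), a log2 ratio of -4.25. The median log2 ratio of the 3 tested genes was -0.07. Mir1a-2, a locus of the main heart and skeletal muscle miRNA miR-1, held 115 and 102 reads (57.5 and 54.8 CPM). Mir486, known from muscle and red blood cells, held 2386 and 2163 reads (1193 and 1161 CPM), with nearly equal levels in both hearts. The 90 nt that its hairpin shares with Mir3107 are the same genomic place on the opposite strand. Its count therefore rests on the strand given to each read and is uncertain. The loci Mir1a-1, Mir133a-1, Mir133a-2, Mir133b and Mir1b held between 1 and 6 reads per library.

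The low counts of the miR-1 and miR-133 loci are not comparable with those of the myosin-hosted genes. Reads that mapped to several places were assigned to no gene. Mir133b shared 21 nt, and Mir133a-1 and Mir133a-2 31 nt, with another annotated hairpin, against at most 14 nt for the myosin-hosted genes. Mir1a-1 shared 28 nt with Mir1b, which covers the place of Mir1a-2 on the opposite strand. The 72 nt that Mir1a-2 shared with Mir1b are thus 1 genomic place, which by itself gives no second place for a read. The standing of the myosin-hosted genes above miR-1 and miR-133 in these tables is therefore a statement about counted reads. How many of the unassigned reads came from those loci was not tested.

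The miRNA genes on the strand of a heart muscle host spanned a wide range of mean levels, from 126.8 CPM for Mir208b to 5198 CPM for Mir208a, and differed between libraries in either direction. A search of 44 host genes of the contractile apparatus, calcium handling and muscle signalling found 8 miRNA genes inside 6 of them. Of these, 5 lay on the strand of the host and all 5 had reads: the 3 myosin-hosted genes, Mir490 in Chrm2, which encodes the muscarinic receptor of the heart, and Mir486 in Ank1, which encodes an ankyrin. Mir490 held 896 and 653 reads (448 and 351 CPM), a log2 ratio of -0.35. Of the 5, Mir208a was called toward library 1, as were 11.6% of all tested genes. Mir499 was called toward library 2, as were 5.52% of them, and the others of the 5 were not called. Under TMM scaling the shares became 7.85% and 8.14%. Mir208a then lost its call, at a log2 ratio of -0.86, and Mir499 kept its call, at 1.42. The remaining 3 of the 8 miRNA genes lay on the opposite strand. Of these, Mir3107 in Ank1 had a mean of 36.9 CPM and the others had no read.

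Set against Mir490 as a second gene with a heart muscle host, the differences of Mir208a and Mir499 were again in opposite directions. Mir208a was 15.6 times Mir490 in library 1 (14.6 to 16.7) and 9.68 times in library 2 (8.93 to 10.5). Mir499 was 2.98 times Mir490 in library 1 (2.76 to 3.22) and 8.96 times in library 2 (8.26 to 9.73). Mir208b was 0.336 times Mir490 in library 1 (0.294 to 0.383) and 0.294 times in library 2 (0.249 to 0.346), with overlapping intervals. Mir208b and Mir490 thus kept their proportion within counting error, while Mir208a moved 1.62-fold and Mir499 3.01-fold against Mir490. The sizes depend on the reference gene. Against Mir486, whose count is uncertain, Mir208b moved 1.42-fold with separate intervals, Mir208a 2.01-fold and Mir499 2.42-fold, the last again in the opposite direction.

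Markers of other cells also differed between the libraries, in either direction. Beside Mir208a, higher in library 1 were Mir206 (97.0 against 4.83 CPM), the fibroblast gene Mir214 (2471 against 1190 CPM) and the liver gene Mir122 (119 against 13.4 CPM), the last on 237 and 25 reads. Each was called, beside 11.6% of all tested genes called in that direction. With TMM the share was 7.85%, and Mir208a and Mir214 (both -0.86) were not called. Beside Mir499, higher in library 2 were the 7 epithelial genes together (460 against 947 CPM). Of these, 3 were called, beside 5.52% of all tested genes called in that direction. With TMM the share was 8.14%, and Mir200c, not called with assigned totals (log2 ratio 0.95), was called (1.14). Among the 7, Mir429 stood the other way, at 16.0 CPM in library 1 and 10.2 in library 2, and was not called. The 2 skeletal muscle genes summed to 98.5 and 5.37 CPM, and the 4 fibroblast genes, of which 1 was at 0, to 2484 and 1201 CPM. The 4 leukocyte genes summed to 5357 and 4950 CPM and the 3 red blood cell genes, Mir486 among them, to 2452 and 1970 CPM. Of the red blood cell genes, Mir451a stood at 1115 and 669 CPM and Mir144 at 143 and 140 CPM, neither called. Mir214 made up nearly all of the fibroblast sum. Of the other fibroblast genes, Mir199a-2 stood with Mir214 (8.50 and 3.22 CPM) and Mir199b the other way (4.00 and 6.98 CPM), neither called. The heart muscle list of 7 genes held 17106 and 12473 reads, of which the 3 myosin-hosted genes alone gave 16975 and 12362, so its sum is no measure apart from theirs. Whether differences in tissue make-up have a part in the values of Mir208a and Mir499 was not tested.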

How the data were processed

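Short RNA of 2 hearts was sequenced, and each library has 1 deposited table without a header. Per the labels and the text deposited beside the tables, the authors used mm10 and annotation M21; neither the aligner nor the counter is given in the sources used here. Values as deposited are raw read counts, not normalized, for both strands, sense and antisense; which is which was read from the values. The first 4 rows name no gene: in libraries 1 and 2, unmapped reads were 14.9% and 13.8%, reads with several places 41.5% and 42.9%, and sense reads outside miRNA genes 7.09% and 5.29%. These rows stayed out of totals and tests. Assigned reads, the sum of the gene rows, were 36.5% and 38.1%.

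All 2202 identifiers matched GENCODE M21. Sense counts were scaled to assigned totals. Log2 ratios had 0.5 added to each count. Because 1 library stands against 1, edgeR's test has no residual degrees of freedom, so an exact conditional binomial test was used (Python 3.11.15, scipy 1.17.1) with Benjamini-Hochberg adjustment over all 344 genes, and tested on simulated data. TMM factors came from edgeR 4.0.16 and size factors from DESeq2 1.42.0. The libraries were not copies (chi-square 92268, 343 degrees of freedom).

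Genes named are the 3 members, the 3 nearest to each, their neighbours in mean level, the muscle list, miRNA genes inside heart muscle hosts, and marker genes at 100 CPM or the highest of a list, given partly as sums. Members and lists were chosen with earlier results of these data known. Alternatives were other scalings, totals, columns, pseudocounts, filters and fold thresholds, hairpin length, and each replicate left out.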

Additional observations from a re-analysis of the deposited data

Results flagged for a closer look

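Outside the gene counts, reads that mapped to several places made up 41.5% (library 1) and 42.9% (library 2) of the total, and no gene level uses them. With 1 group of 2 libraries, outlying samples and differences between groups were not examined.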

How the results depend on the processing

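The direction of every library difference and within-library ratio of the 3 genes was the same in all alternatives run. The call of Mir208a was lost because its log2 ratio of -1.05 lay just past 2-fold: it was -0.86 with TMM, -0.86 with DESeq2 size factors, -0.98 with all reads as the total and -1.0, just short of 2-fold, with both strands counted together. At the 2-fold threshold, Mir499 was called with each scaling, total, column and pseudocount run (1.23 to 1.42) and Mir208b with none (-0.55 to -0.36); neither Mir499 nor Mir208a reaches 4-fold. The share of the 3 genes was 0.281% of all reads instead of 0.756% of assigned reads, and 0.980% with both strands together, where totals are smaller. Leaving out either library gave log2 ratios of 0.11 and 2.39 for Mir208a over Mir499, 5.04 and 5.54 for Mir208a over Mir208b, and 3.15 and 4.93 for Mir499 over Mir208b, so the size of the first depends on which library is used. Over all genes, 59 were called, 33 with 100 or more summed reads, 105 at 1.5-fold and 20 at 4-fold. The split was 19 higher in library 2 and 40 in library 1, and 28 and 27 with TMM. No paired analysis was possible because there is 1 group. Depth limits Mir208b most, at 301 and 192 reads.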
